A study of Mus musculus with 2 samples.

Results

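The aquaporins are a family of channel proteins, and 8 of their genes were followed in the crypts of mice that had lost Lpcat3 from the intestinal epithelium: Aqp1, Aqp3, Aqp4, Aqp5, Aqp7, Aqp8, Aqp9 and Aqp11. They were taken as the probe sets whose gene symbol in the array annotation is one of these names, which gave 8 genes of the 18193 that the array names, read by 17 probe sets. The knockout group was Lpcat3 F/F mice that also carried Villin-CreERT2, a Cre recombinase that the Villin promoter drives in the intestinal epithelium and that tamoxifen activates. The control group was Lpcat3 F/F mice without the Cre transgene. Mice of both groups were 8 to 10 weeks old, carried the floxed Lpcat3 alleles and received 1 mg of tamoxifen a day for 5 days by intraperitoneal injection, and their small-intestinal crypts were isolated 2 weeks after that. A single Affymetrix array was run per group on pooled RNA from 5 mice, so there are no replicates and no p-value is given. Effects of losing Lpcat3, of the Cre transgene, of the mice in a pool and of the array itself cannot be told apart. The family was selected on the log2 ratios of these same arrays, so those ratios are a description.

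Aquaporins form tetramers in membranes, each subunit with its own pore. Aqp1, Aqp4, Aqp5 and Aqp8 are water channels, and Aqp8 also lets ammonia and hydrogen peroxide pass. Aqp3, Aqp7 and Aqp9 are aquaglyceroporins, which carry glycerol and other small uncharged solutes as well as water. Aqp11 is a divergent member known from the endoplasmic reticulum. In the gut such channels let water follow the salt and sugar that the epithelium absorbs or secretes.

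Signals are MAS5 intensities in linear units, and a signal under 92.9, the 50th percentile of all values of both arrays, was treated as near background (the floor). The SD of a log2 ratio between different probe sets of the same gene was 0.28 (1.21-fold, 4582 genes), which is technical error only and leaves out the spread between mice and pools. Median signals were 90.5 on the knockout array and 95.4 on the control array. Lpcat3 had a signal of 928 in the knockout pool and 4691 in the control pool, a log2 ratio of -2.34. All 6 epithelial markers (Epcam, Vil1, Cdh1, Krt8, Krt19, Cdx2) were well above the floor and within 1.5-fold, with a summed signal of 131362 in the knockout pool and 118597 in the control pool. The ratio of 3' to 5' signal of Actb, a sign of RNA integrity, was 1.64 in the knockout pool and 1.98 in the control pool.

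Aqp8 and Aqp1 were lower in the knockout pool and Aqp11 and Aqp3 were higher, while Aqp4 and Aqp7 lay within 1.5-fold by their brightest probe sets and Aqp5 and Aqp9 were near background in both pools. Of the 6 genes measured, 2 were higher and 2 were lower by at least 1.5-fold, with a median log2 ratio of -0.11. Over all 11496 genes measured, 4.76% were higher and 8.74% were lower by that much, with a median of -0.042. Since the members were selected on this contrast, nothing is read from their larger share.

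**Figure D1:**
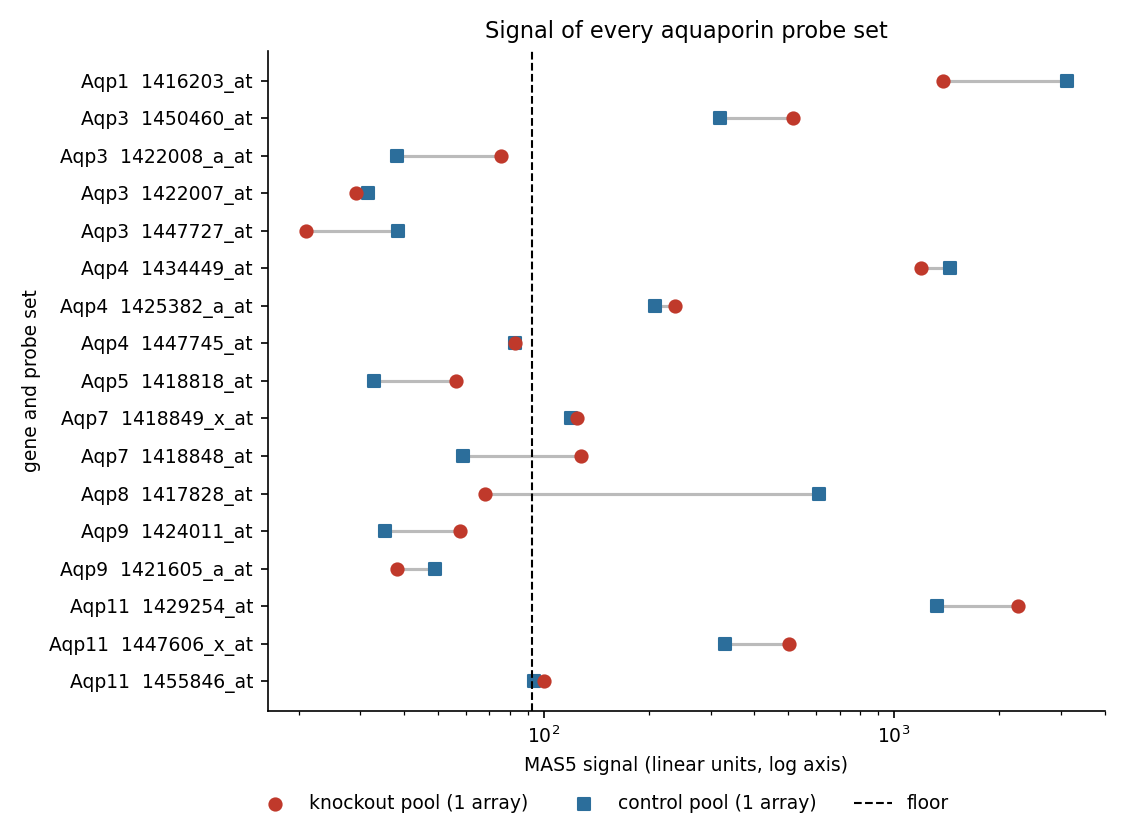
MAS5 signal of every probe set of the 8 aquaporin genes on a log axis, with the knockout pool as circles, the control pool as squares and the floor of 92.9 as a dashed line; each point is 1 array. The probe set of Aqp8 lies below the floor in the knockout pool and at 613 in the control pool, and those of Aqp5 and Aqp9 lie below the floor on both arrays.

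The stretches before the start sites of the 4 genes that differed by at least 1.5-fold are shown because these genes fall into a lower pair and a higher pair. They are the 250 bases before the RefSeq start in GRCm38.p6, 5′ to 3′ on the strand of the gene, and 7 of the 8 genes, all but Aqp4, matched an entry. The stretch of Aqp8 is chr7:123462044-123462293 (+ strand), that of Aqp1 chr6:55336049-55336298 (+ strand), that of Aqp11 chr7:97738248-97738497 (- strand) and that of Aqp3 chr4:41098184-41098433 (- strand). Capitals mark letters that match 1 of 6 motifs searched on both strands.
Aqp8: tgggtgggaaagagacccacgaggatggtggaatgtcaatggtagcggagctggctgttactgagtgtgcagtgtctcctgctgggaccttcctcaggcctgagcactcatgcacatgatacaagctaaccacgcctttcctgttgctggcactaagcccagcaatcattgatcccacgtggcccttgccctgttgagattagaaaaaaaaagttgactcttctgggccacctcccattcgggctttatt
Aqp1: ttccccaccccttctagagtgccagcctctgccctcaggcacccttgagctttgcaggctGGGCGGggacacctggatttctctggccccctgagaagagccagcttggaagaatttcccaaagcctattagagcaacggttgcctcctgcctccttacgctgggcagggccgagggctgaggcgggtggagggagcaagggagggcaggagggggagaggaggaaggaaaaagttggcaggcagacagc
Aqp11: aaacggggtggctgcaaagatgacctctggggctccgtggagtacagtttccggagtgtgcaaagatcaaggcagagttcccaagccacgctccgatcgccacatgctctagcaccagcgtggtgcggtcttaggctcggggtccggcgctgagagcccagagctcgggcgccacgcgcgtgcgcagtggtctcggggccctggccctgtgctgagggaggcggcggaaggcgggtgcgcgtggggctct
Aqp3: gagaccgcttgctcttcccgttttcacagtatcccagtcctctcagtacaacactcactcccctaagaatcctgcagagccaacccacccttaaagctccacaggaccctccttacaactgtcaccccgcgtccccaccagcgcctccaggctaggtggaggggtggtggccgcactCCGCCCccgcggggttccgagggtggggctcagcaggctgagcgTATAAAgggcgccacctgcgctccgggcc
The TATA box, spelled TATAAA, was found at positions -29 to -24 from the start of Aqp3 and in 12.4% of all 32851 stretches of this length. The GC box, spelled GGGCGG, lay at -73 to -68 in Aqp3 and at -190 to -185 in Aqp1, and 32.7% of all stretches held it. The CCAAT box, which its name spells, was in 33.9% of all stretches and in none of these 4. Sites of the GATA type, spelled AGATAA, were in 9.99% of all stretches and in none of these 4. The same held for the CDX type, spelled TTTATNG, with 9.81% of all stretches. The sterol regulatory element type was spelled TCACNCCAC and was found in 1.05% of all stretches, again in none of these 4. No match overlapped another, the lower pair shared no motif of the 6 with each other, and neither did the higher pair. G and C made up 52.4% of the bases of Aqp8, 62% of Aqp1, 67.2% of Aqp11 and 64% of Aqp3, against a median of 52.4% over all stretches. A match is a description of letters and shows no binding.

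Among the water channels, Aqp8, which is known from the absorptive epithelium of the gut and from the pancreas and liver, stood furthest from 0. Its signal was 68.0 in the knockout pool, below the floor, and 613 in the control pool. Against the floor, Aqp8 was at least 6.60-fold lower after knockout, a log2 bound of -2.72 or lower. Of all genes measured, 2.32% were lower by 2-fold or more. Aqp8 was read by 1 probe set, so no other probe set of the gene bears on the value.

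Genes with defining roles in other cell types were set beside Aqp8. Of all genes measured, 4.76% were higher and 8.74% were lower by at least 1.5-fold. Of the 11 measured markers of villus enterocytes, 2 were at least 1.5-fold higher (Mttp, 0.66, and Alpi, 0.62) and 1 was lower (the lactase gene Lct, -1.36), with a median log2 ratio of 0.20 and a summed signal of 261124 in the knockout pool and 225319.5 in the control pool. Of these 11 enterocyte genes, 8 had ratios above 0, and the part of enterocytes in the value of Aqp8 was not tested. All 9 T and natural killer lymphocyte markers were at least 1.5-fold lower, with a median of -2.51 and a summed signal of 8786 in the knockout pool and 42822 in the control pool. None of these 9 was below the floor on both arrays, and the part of lymphocytes in the value of Aqp8 was not tested. Of 6 exocrine pancreas markers on the array, Cpa1, Cela2a, Ctrb1, Cpb1 and Cel were below the floor in both pools. Prss2 was at 110.4 in the knockout pool and 61.9, below the floor, in the control pool. Of 5 colonocyte markers, Car1, Hoxb13, Scnn1b and Scnn1g were below the floor in both pools, and Car4, which the small intestine also expresses, was at 0.22. In pooled tissue, fewer cells of a type and less RNA per cell cannot be told apart.

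Aqp1, the water channel of red blood cells, vessel walls and the kidney's proximal tubule, was the other water channel that was lower. Its signal was 1385 in the knockout pool and 3115 in the control pool, a log2 ratio of -1.17 (2.25-fold lower) by its 1 probe set. That is -4.19 in units of the SD between probe sets, and 1.16% of the 10452 genes above the floor on both arrays had a lower ratio. Of 10 endothelial markers, 8 were below the floor in both pools, among them Pecam1, Cdh5, Emcn and Vwf. The summed signal of all 10 was 466 in the knockout pool and 535 in the control pool. Eng was at 176 in the knockout pool and 149.7 in the control pool, and Kdr at 91.9 in the knockout pool and 99.8 in the control pool. Of 4 red blood cell markers on the array, Hba-a1, Alas2 and Slc4a1 were below the floor in both pools, and the globin gene Hba-a2 had 80.0 in the knockout pool, below the floor, and 152 in the control pool, at least 1.64-fold lower. The summed signal of the 4 was 121 in the knockout pool and 290.2 in the control pool. Except for Hba-a2 in the control pool, every value in these sums was under the floor. The part of blood in the value of Aqp1 was not tested.

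Aqp4, a water channel of astrocytes, the gastric parietal cell and other basolateral membranes, did not differ beyond the probe error. Its brightest probe set had a signal of 1192 in the knockout pool and 1443 in the control pool, a log2 ratio of -0.28. A second had 238 in the knockout pool and 208 in the control pool, a ratio of 0.19, on the opposite side of 0. The third lay just under the floor, at 82.7 in the knockout pool and 82.8 in the control pool. Among 4 glial markers on the array, Sox10, S100b and Cdh19 were below the floor in both pools. Gfap was at 94.3 in the knockout pool, just above the floor, and 16.3, below it, in the control pool, a bound of only 1.02-fold. The parietal cell gene Atp4a was at 120.4 in the knockout pool and 77.0, below the floor, in the control pool.

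Aqp5, the water channel of salivary, tear and airway glands, was near background. Its 1 probe set had 56.1 in the knockout pool and 32.7 in the control pool, and no ratio is given for values under the floor. Of 7 Brunner gland and stomach markers on the array, 4 passed the floor in a pool. Of these, Tff1 was at 892 in the knockout pool and 903 in the control pool and Tff2 at 113 in the knockout pool and 97.0 in the control pool, both within 1.5-fold, whereas Atp4a (at least 1.30-fold higher) and Gkn2 (at least 1.22-fold lower) have bounds only.

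Among the aquaglyceroporins, Aqp3, which is known from the basolateral membrane of epithelia and from skin, was more than 1.5-fold higher. Its brightest probe set had a signal of 514 in the knockout pool and 319 in the control pool, a log2 ratio of 0.69 (1.61-fold higher), or 2.47 of the probe SDs. This ratio rests on 1 of 4 probe sets. The other 3 were below the floor in both pools, at 75.7, 29.1 and 20.9 in the knockout pool and at 38.2, 31.4 and 38.4 in the control pool, in the same order of probe sets. Of the 10452 genes above the floor on both arrays, 3.11% had a higher ratio.

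Aqp7, the glycerol channel of fat cells, lay close to the floor. Its brightest probe set, which can bind related transcripts, had 125 in the knockout pool and 120.1 in the control pool, a ratio of 0.053. The other had 128 in the knockout pool and 58.8, below the floor, in the control pool, so it was at least 1.38-fold higher, a log2 bound of 0.47 or more (1.67 of the probe SDs). The first did not differ beyond the probe error, and Aqp7 takes the bound of the second when probe sets that can bind related transcripts are left out. Of 5 adipocyte markers on the array, Adipoq, Retn, Fabp4 and Lep were below the floor in both pools, and the lipid droplet gene Cidec was at 627 in the knockout pool and 321 in the control pool, a ratio of 0.96.

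Aqp9, the glycerol channel of liver cells and neutrophils, was near background by both of its probe sets. They had 57.8 and 38.2 in the knockout pool and, in the same order, 35.3 and 49.0 in the control pool. The neutrophil markers S100a8, S100a9 and Cxcr2 were likewise below the floor in both pools. Csf3r, also a neutrophil marker, was at 28.7 in the knockout pool, below the floor, and 94.6 in the control pool, just above it. Over the 8 neutrophil and macrophage markers on the array, the summed signal was 3416 in the knockout pool and 3669 in the control pool. The macrophage receptor gene Csf1r had a ratio of 2.53 on the brightest of its probe sets, with 1.21 and 0.65 on others. Other members did not share this, with Lyz2 at -0.38 and Adgre1 at 0.073, and the median of the measured markers was 0.023.

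Aqp11 was the aquaporin with the highest ratio and the one that several probe sets read above the floor on both arrays in the same direction. Its brightest probe set had a signal of 2259.8 in the knockout pool and 1326 in the control pool, a log2 ratio of 0.77 (1.70-fold higher), or 2.76 of the probe SDs. The second, which can bind related transcripts, had 502 in the knockout pool and 329 in the control pool, a ratio of 0.61. The third, just above the floor, had 101 in the knockout pool and 94.0 in the control pool, a ratio of 0.097. All 3 were above 0, the third within the probe error. Of the genes above the floor on both arrays, 2.37% had a higher ratio than Aqp11.

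**Figure D2:**
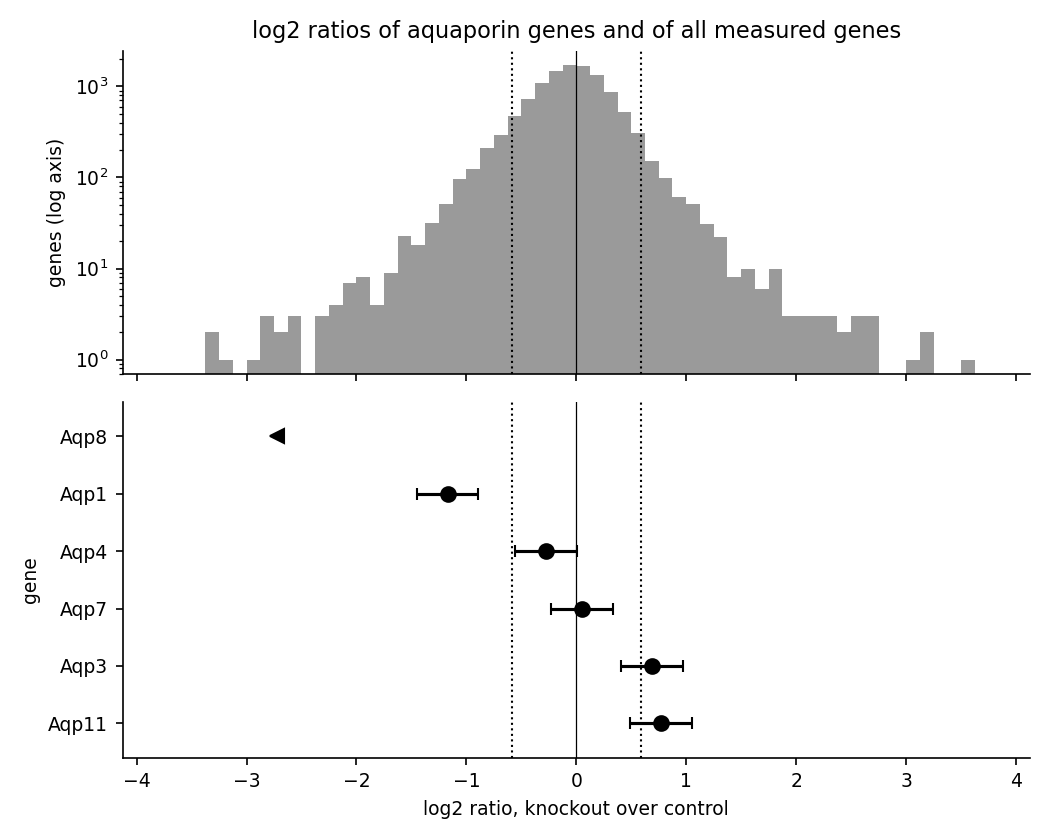
Top, numbers of genes by log2 ratio (knockout over control) for all 11496 measured genes, on a log axis; bottom, the ratios of the 6 measured aquaporins, with bars of 1 SD between probe sets (0.28) and dotted lines at 1.5-fold. Aqp8, drawn as an arrowhead, is a bound at -2.72, Aqp1 lies at -1.17 and Aqp11 at 0.77.

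Ordered by ratio, the genes ran Aqp8, Aqp1, Aqp4, Aqp7, Aqp3 and Aqp11. The SD of a difference between ratios of different genes, from the same probe error, is 0.39. The gap of Aqp3 and Aqp11 was 0.080 and that of Aqp4 and Aqp7 was 0.33, both within it. The gaps of Aqp8 and Aqp1 (at least 1.55), of Aqp1 and Aqp4 (0.89) and of Aqp7 and Aqp3 (0.64) were wider than that SD. The gap of Aqp7 and Aqp3 depends on the probe set, since the other probe set of Aqp7 was at 0.47 or more, a bound. By their brightest probe sets the 3 measured water channels (Aqp8, Aqp1 and Aqp4) had ratios below 0, and the 2 measured aquaglyceroporins (Aqp7 and Aqp3) and Aqp11 had ratios above 0. The ratios of Aqp4 and Aqp7 were within 1 SD between probe sets of 0, and the second probe set of Aqp4 lay above 0, at 0.19.

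The remaining aquaporin genes on the array were near background. Aqp2, the water channel that vasopressin controls in the kidney, had 75.0 in the knockout pool, below the floor, and 114 in the control pool, at least 1.23-fold lower. The 7 probe sets of Mip, Aqp6 and Aqp12 were all below the floor on both arrays.

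Groups of genes that work with these channels had medians near that of all genes. Of 17 genes of fluid transport measured, 1 was higher and 3 were lower by at least 1.5-fold, with a median log2 ratio of 0.017. Over all genes measured, 4.76% were higher and 8.74% were lower by that much. Those lower were Slc12a2, the basolateral sodium-potassium-chloride cotransporter of secretion (8106 in the knockout pool, 17268 in the control pool, ratio -1.09, and -1.19 and -1.04 by its other probe sets), the potassium channel gene Kcnq1 (-1.04) and the sodium channel subunit gene Scnn1a (-1.10). The higher one was the chloride channel gene Ano1, at least 1.69-fold. Cftr, the chloride channel of crypt secretion, was at -0.44, and the sodium-proton exchanger gene Slc9a3 at 0.52. Near 0 lay Slc5a1, the sodium-glucose cotransporter (-0.14).

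Of 12 genes of the osmotic response and of the control of water permeability, 3 were at least 1.5-fold lower, with a median of -0.11. The share of all genes measured that were lower by that much was 8.74%. Sgk1, a kinase that salt, volume and corticosteroids induce, had 564 in the knockout pool and 2215 in the control pool, a ratio of -1.97. Nfat5, the transcription factor of the response to high salt, had ratios of -0.67 for the brightest probe set and of -0.081 and 0.24 for the others. Stk39, a kinase that controls chloride cotransporters, was at -0.66 and at 0.060 by its other probe set. The carriers of compatible solutes Slc5a3 (0.35) and Slc6a6 (0.30) were within 1.5-fold.

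Of 9 genes of glycerol release and use, 2 were at least 1.5-fold lower, beside 8.74% of all genes measured. The others were within 1.5-fold, and the median was -0.019. Those lower were Fbp1 (-1.16) and Pck1 (-1.09), both of gluconeogenesis, whereas the glycerol phosphate dehydrogenase genes Gpd1 (0.36), Gpd1l (0.33) and Gpd2 (0.30) were above 0. Of 12 genes that make or remove hydrogen peroxide, 1 was higher and 1 was lower by at least 1.5-fold. Of all genes measured, 4.76% were higher and 8.74% were lower by that much. The glutathione peroxidase gene Gpx2 was at 0.63. The catalase gene Cat was at -0.60, and at -0.50, within 1.5-fold, by its other probe set. The other 10 genes were within 1.5-fold, and the median of the 12 was 0.11.

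Of the other marker lists, 5 of 6 Paneth cell genes were lower by at least 1.5-fold (median -1.07), beside 8.74% of all genes measured. Their summed signal was 70271 in the knockout pool and 114318 in the control pool. Of 7 proliferation genes 2 were lower (median -0.29), Mcm6 (-0.72) and Ccna2 (-0.59). Their other probe sets were within 1.5-fold, at -0.34 for Mcm6 and -0.16 for Ccna2. No goblet cell gene of 6 passed 1.5-fold (median -0.13). Of 9 smooth muscle and fibroblast genes 6 were below the floor in both pools, and of the other 3, Acta2 was at 0.76, Des was at least 1.62-fold lower and Col1a2 at least 1.25-fold higher. The part of these cell types in the aquaporin values was not tested.

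**Figure D3:**
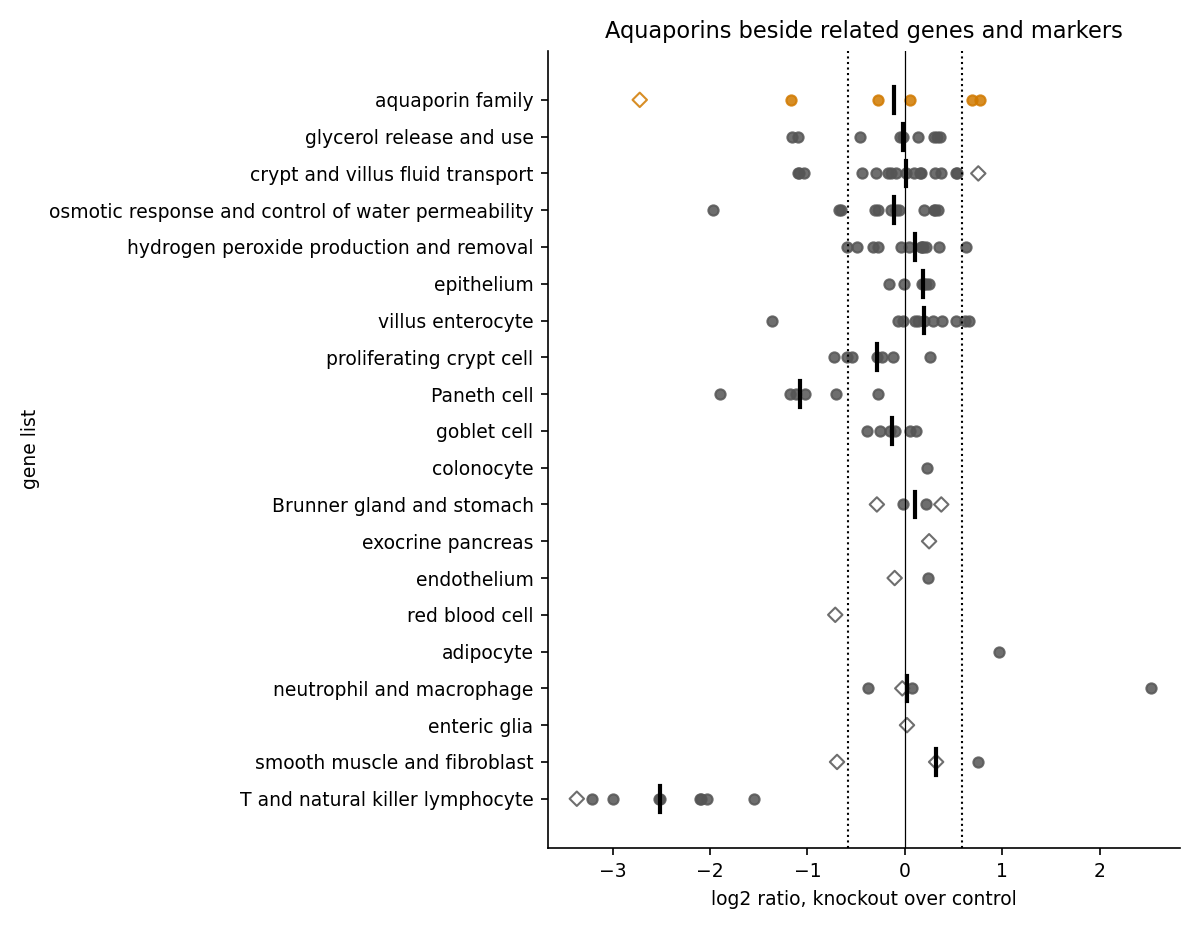
log2 ratios (knockout over control) of the measured members of the aquaporin family, 4 lists of related genes and 15 lists of cell type markers; filled circles are above the floor on both arrays, open diamonds are bounds, black bars are medians of lists with 3 or more members, and dotted lines mark 1.5-fold. The 6 aquaporins spread on both sides of 0, whereas all 9 lymphocyte markers lie to the left of the 1.5-fold line.

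The genes nearest to each aquaporin were found by the distance over the 2 arrays in log2 signal after the floor, which depends on the brightness of each probe set as well as on the ratio. Nearest to Aqp8 were Cd36, Slc5a12, Ces1d, Cd3e and Pbld1, at distances of 0.38 to 0.49 and with ratios of -2.79 (Ces1d) to -2.10 (Cd3e). Cd36 is a fatty acid transporter, Slc5a12 a lactate carrier and Cd3e a subunit of the T cell receptor complex. Nearest to Aqp1 were Kbtbd11, Psmb8, Rhoq, Tns3 and Naaladl1 (0.15 to 0.30), with ratios of -1.23 for Psmb8 to -0.79 for Naaladl1. Nearest to Aqp11 were Nudt5, Fam83e, Cdc34, Phgdh and 1810055G02Rik (0.044 to 0.12), and nearest to Aqp3 were Bnip3, Pqlc3, Tfe3, Sema3b and Nucb2 (0.016 to 0.085). With 2 arrays such likeness is a description of 2 values per gene.

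The ratios of Aqp1 and Aqp4 were between -1.18 and -1.12 and between -0.28 and -0.042 under the 7 other ways of processing, and the size of the Aqp8 bound followed the floor. The mean over its probe sets put Aqp11 at 0.49, below 1.5-fold, and a pseudocount in place of the floor put Aqp3 at 0.56, also below it.

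**Figure D4:**
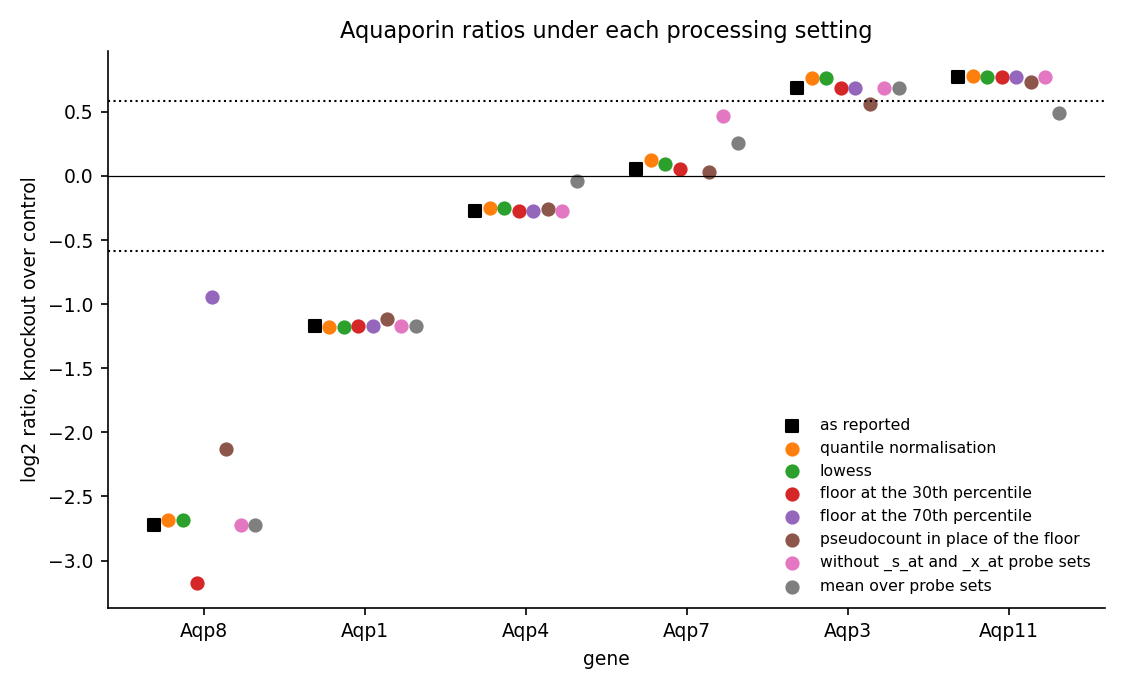
log2 ratios (knockout over control) of the 6 measured aquaporins as reported (black squares) and under 7 other processing settings (coloured circles), with dotted lines at 1.5-fold. Aqp8 moves between -3.17 and -0.95 with the floor and pseudocount but stays below the lower dotted line. No gene at least 1.5-fold different changes sign, which a floor or a pseudocount cannot bring about.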

How the data were processed

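RNA from small-intestinal crypts was read on 2 Affymetrix mouse arrays of 45101 probe sets, 1 per genotype, each with RNA pooled from 5 mice. The deposited values are linear signal intensities per probe set, for which the submitters' processing notes name MAS5 without a version or options. MAS5 combines perfect-match and mismatch probes and scales each array by 1 factor. Without the outer 2% of values on either side, both arrays averaged 500.00, so the values were used as deposited by the authors. The number of probe sets is that of the full mouse array, whereas the design text names its smaller A version. The 64 control probe sets were set aside. Of the others, 34945 carried 1 gene symbol in the platform annotation, 932 carried several and 9160 had none here. For 34741 of those with 1 symbol, the symbol was taken from RefSeq of GRCm38.p6 through the Entrez identifier, whether or not it changed.

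The table holds no detection calls, so signals below a floor of 92.9, the 50th percentile over both arrays without control probe sets, were raised to that floor before the log2 ratio, knockout over control, was taken (Python 3.11.15, pandas 2.3.3). Each gene takes the ratio of the probe set with the highest mean log2 signal. The ratio steps were tested on simulated data, with known ratios put on genes well above the floor only. That test does not cover values nearer the floor, those of Aqp8, Aqp3 and Aqp7 among them. With 1 array per group there is no spread between samples and no test. The alternatives were quantile normalisation, lowess (statsmodels 0.14.6), other floors, a pseudocount, other choices of probe set and a mean over probe sets. The named genes are all aquaporins, Lpcat3, members of the related lists and marker lists, and the 5 nearest genes of each aquaporin that differed by 1.5-fold. The aquaporin members and all lists were chosen with earlier results of these data known. The array names no genome build, so no coordinates are given for its probe sets.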

Additional observations from a re-analysis of the deposited data

How the results depend on the processing

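No paired analysis was possible because there was a single array per genotype, which also means that none could be left out. Under quantile normalisation, lowess and without _s_at and _x_at probe sets, 2 aquaporins were higher and 2 were lower by at least 1.5-fold, as in the values reported. Over all genes measured, 4.7% to 5.6% were higher and 7.4% to 8.9% were lower by that much under these settings. Without those probe sets Aqp7 was at 0.47 or more, a bound. With the floor at the 30th percentile Aqp8 was at -3.17 and 4 aquaporins were at least 1.5-fold higher, beside 8.22% of all genes measured. Aqp5 (at least 0.69) and Aqp9 (0.71) enter at this floor, which raises the count and puts the aquaporin median at 0.37. The value of Aqp9 is that of its brightest probe set. Its other probe set, with 38.2 in the knockout pool and 49.0 in the control pool, lay on the opposite side of 0 (-0.36). With the floor at the 70th percentile Aqp8 was at -0.95, as the bound shrinks by construction and Aqp7 is no longer measured. With a pseudocount in place of the floor Aqp8 was at -2.13 and 1 aquaporin was at least 1.5-fold higher, beside 2.94% of all genes. With the mean over probe sets the count was also 1, beside 4.33% of all genes. No aquaporin at least 1.5-fold different changed sign under quantile normalisation or lowess. A floor or a pseudocount cannot change the sign of a probe set, so those settings do not bear on it. Leaving out _s_at and _x_at probe sets kept the reported probe sets of these genes. The mean over probe sets could change the sign of Aqp11 only, which was at 0.49. Values near the floor, those of Aqp7 among them, are limited by signal over background. The alternatives do not speak to the spread between mice, which 1 pool per group leaves unknown.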
